A study of Homo sapiens with 6 samples.

Results

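Hypoxia response and glycolysis genes were followed in 2 human colorectal cancer cell populations. The group has 40 genes, chosen by name from knowledge of the pathway, and a gene was measured where a probe set carried its symbol alone in the platform annotation. Of the 54675 rows of the deposited table, 90 met that rule, and 87 of these lay outside the array's control probe sets. They measured 38 of the 40 genes, and all 38 stayed in after a filter on low signals (79 of the 87 probe sets), so the filter removed no measured member. Expression of the carbonic anhydrase gene CA9 and of the lactate exporter gene SLC16A3 was not analysed here. The 38 genes fall into 17 glycolysis enzymes, 16 targets of the hypoxia-inducible factors (HIF) outside glycolysis, and 5 transporters and regulators of glycolysis. They stand among 14243 genes tested.

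The arrays compare M5 with SW480. SW480 is an established colorectal cancer cell line, and M5 is a subpopulation of it that was obtained by selection in an animal and has, per the labels, a raised ability to metastasise to the liver. There are 3 arrays per population, labelled as biological replicates and made from total RNA of cells grown in the same serum-containing medium and incubator conditions. The labels name no gene alteration, drug or low-oxygen step in either population, and whether M5 is 1 clone, and how often the selection was repeated, is not given in the sources used here.

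In cells with enough oxygen, prolyl hydroxylases mark the alpha subunits of HIF for destruction through the VHL ubiquitin ligase. When oxygen is short the alpha subunits persist, pair with ARNT and bind a short DNA core in front of target genes, which include nearly every enzyme of glycolysis, glucose transporters, and genes of blood vessel growth, acid handling and mitochondrial turnover. Many colorectal cancers keep a high rate of glycolysis even with oxygen, so the enzymes of the pathway are abundant transcripts in cultured cancer cells.

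The arrays differed in brightness and were quantile normalised, and values below are normalised signals on a linear scale unless called log2. The 2% trimmed mean signal before normalisation was 27.2, 65.9 and 67.7 on M5 replicates 1, 2 and 3, and 21.1, 53.8 and 87.1 on SW480 replicates 1, 2 and 3. Replicate 1 of each line was thus the dimmest of its line, and these arrays are called the dimmer pair. M5 replicates 2 and 3 correlated at r = 0.994 over bright probe sets, against 0.897 to 0.958 for the other pairs of arrays, and count as 1 sample in means and SDs. Of 9 colorectal epithelium markers, 5 were kept by the filter. Their list summed to between 10956 and 12003 on the M5 arrays and between 8687 and 12626 on the SW480 arrays, carried by EPCAM, KRT8, KRT18 and KRT19, while CDX1, CDX2, CDH17 and GPA33 lay below the filter. The summed signals of leukocyte markers (1 of 4 kept) were 13.8 to 17.3 in M5 and 12.6 to 17.9 in SW480, and those of endothelial markers (1 of 3 kept) 11.8 to 20.6 in M5 and 9.63 to 29.9 in SW480. Fibroblast markers (3 of 4 kept) summed to 77.8 to 121 in M5 and 89.9 to 141 in SW480, and hepatocyte markers (3 of 4 kept) to 75.7 to 345 in M5 and 67.8 to 266 in SW480. Of the latter, TTR had 196, 73.1 and 5.68 in M5 against 5.17, 1.67 and 1.43 in SW480. The lines did not overlap for TTR (limma adjusted p = 0.249), while they overlapped for SERPINA1 and APOA1. PTPRC, CD14, LUM, VWF, CDH5 and ALB were below the filter, and as the values come without detection calls, whether such signals lay above background is unknown.

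The HIF binding core is the letters ACGTG or GCGTG, which read CACGT or CACGC on the opposite strand. It was searched for on both strands of the RefSeq promoter windows, which run from 250 bases before to 50 bases after a gene's start (build GRCh38.p14). An E-box, CACGTG, holds the core on each strand and counts as 2 matches. Promoters were found for 36 of the 40 listed genes, 64 windows in all, and CA9 and SLC16A3 are among them. Of these windows 70.3% held a match, against 48.4% of all 35116 windows of the same length. By gene, 33 of the 36 members (91.7%) held a match in at least 1 window, against 52.4% of all genes, where genes with more windows have more chances. The HIF targets outside glycolysis had 16 windows for 14 genes, CA9 included, and 14 of these windows held a match. Of the windows of glycolysis enzymes 23 of 37 did. Shown here are BNIP3, the member with the lowest p between the lines, ANKRD37 and ENO2, which stood far apart between arrays of 1 line, and LDHB, which moved against most enzymes there. Capitals mark each match.
BNIP3: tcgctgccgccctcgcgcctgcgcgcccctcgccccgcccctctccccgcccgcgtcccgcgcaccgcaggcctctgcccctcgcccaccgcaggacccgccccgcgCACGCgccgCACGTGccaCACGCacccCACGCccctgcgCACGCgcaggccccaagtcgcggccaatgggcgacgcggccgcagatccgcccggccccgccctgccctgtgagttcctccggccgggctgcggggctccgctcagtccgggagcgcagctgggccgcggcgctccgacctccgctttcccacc
ANKRD37: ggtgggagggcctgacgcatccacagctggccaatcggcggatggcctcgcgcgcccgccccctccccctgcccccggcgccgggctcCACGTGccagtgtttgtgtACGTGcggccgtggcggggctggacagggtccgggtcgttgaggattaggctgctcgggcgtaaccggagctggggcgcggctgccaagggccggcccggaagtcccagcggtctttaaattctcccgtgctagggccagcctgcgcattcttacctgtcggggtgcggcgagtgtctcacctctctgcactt
ENO2: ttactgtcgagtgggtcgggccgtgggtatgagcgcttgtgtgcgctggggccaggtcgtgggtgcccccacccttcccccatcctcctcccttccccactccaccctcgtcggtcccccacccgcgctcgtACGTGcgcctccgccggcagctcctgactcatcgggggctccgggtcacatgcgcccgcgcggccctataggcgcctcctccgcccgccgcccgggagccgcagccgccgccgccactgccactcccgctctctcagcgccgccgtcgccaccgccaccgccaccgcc
LDHB: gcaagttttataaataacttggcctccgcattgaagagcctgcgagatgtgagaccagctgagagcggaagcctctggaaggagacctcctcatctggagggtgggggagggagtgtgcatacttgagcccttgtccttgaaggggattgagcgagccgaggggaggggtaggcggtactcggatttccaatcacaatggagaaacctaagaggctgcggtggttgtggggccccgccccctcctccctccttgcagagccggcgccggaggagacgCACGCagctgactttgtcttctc
The windows lie at chr10:131981874-131982173 on the minus strand for BNIP3, with 6 matches including 1 E-box, and at chr4:185396591-185396890 on the plus strand for ANKRD37, with 3 matches including 1 E-box. ENO2 has 1 match in chr12:6914330-6914629 on the plus strand, and LDHB has 1 in chr12:21657793-21658092 on the minus strand. A match is a description of the letters and not evidence of HIF binding.

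No member passed the threshold between M5 and SW480 (limma, Benjamini-Hochberg adjusted p under 0.05 over all genes), with 0 of 38 higher and 0 of 38 lower. Over all genes, 0.0702% were called higher and 0.0632% lower, so hardly any gene of any kind was called in this comparison. With limma p under 0.05 before adjustment, 3 members were higher, namely BNIP3, ERO1A and PDK1, and 0 were lower, against 5.43% of all genes higher and 6.12% lower. By the brightest probe set of each gene, every M5 array lay above every SW480 array for 1 member, BNIP3, and below for 0 members. Of all genes, 7.74% and 8.36% separated in these directions. The shares of members are near or below those of all genes. Another kept probe set of PGK1 (log2 fold change 0.65) and another of ENO1 (0.31) also separated the lines, both higher in M5. The median log2 fold change was 0.13 over the glycolysis enzymes, -0.03 over the HIF targets outside glycolysis and -0.06 over the transporters and regulators, beside -0.01 over all genes. Positive values were found for 13 of 17 enzymes, 8 of 16 HIF targets and 2 of 5 transporters and regulators, and for 49.3% of all genes. With no scaling between arrays the medians were 0.32, 0.08 and 0.01 for the 3 roles, and that of all genes was 0.07. With arrays centred on the median they were 0.21, -0.03 and -0.10 (all genes -0.05). With the mean of all kept probe sets they were 0.13, 0.12 and 0.29 (all genes -0.003). With M5 replicates 2 and 3 averaged they were 0.15, 0.06 and 0.15 (all genes -0.01). The signs of the last 2 roles thus depend on the setting. Whether a difference in bulk RNA comes from fewer cells of a kind or from less RNA per cell cannot be told apart. The p-values measure the spread between these arrays only, and the fit counts M5 replicates 2 and 3 as separate arrays. With these 2 averaged to 1 sample, 0 members passed in either direction (lowest limma adjusted p = 0.843).

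**Figure D1:**
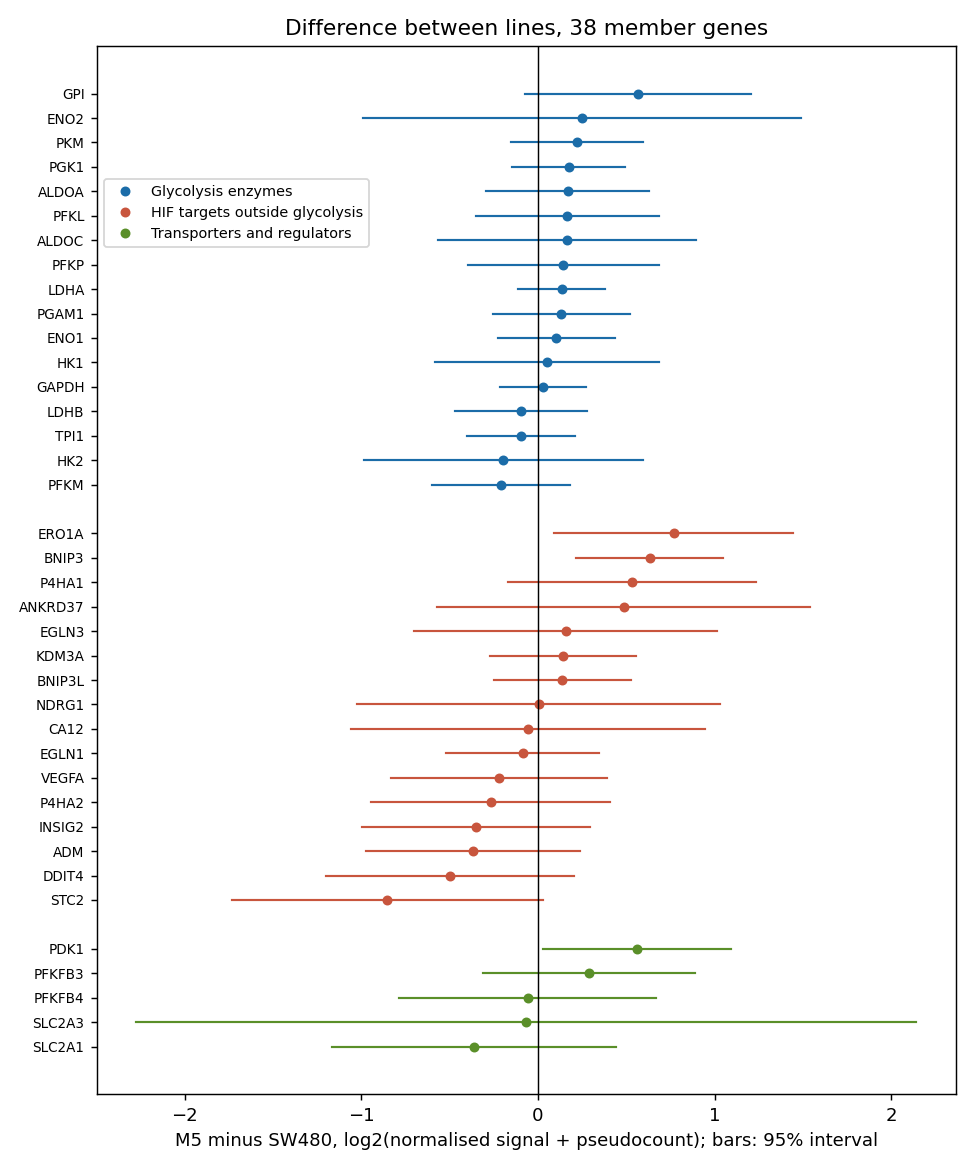
Difference of M5 minus SW480 for the 38 members on the log2(normalised signal + pseudocount) axis, with points for limma's estimate from 3 arrays per line and bars for its 95% interval, grouped by role. Intervals of only ERO1A, BNIP3 and PDK1 lie above 0, and 0 of the 38 members passed after adjustment.

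Glycolysis enzymes turn glucose into pyruvate and lactate, and none of the 17 differed past the threshold between the lines. GPI, phosphoglucose isomerase, had the largest difference among them by the brightest probe set of each gene. Its signal was 2356, 1361 and 1482 on M5 replicates 1, 2 and 3, against 1844, 953 and 833 on SW480 replicates 1, 2 and 3. Both lines had their highest signal on replicate 1, and the groups overlapped because SW480 replicate 1 lay above M5 replicates 2 and 3. The log2 fold change was 0.57 ± 0.29 (SE, 95% interval -0.08 to 1.21, adjusted p = 0.487 in limma). ENO2, the neuronal enolase that many cancers also express, had signals of 241, 120.2 and 96.4 in M5 against 348, 72.6 and 64.5 in SW480. Replicate 1 was several times the other replicates in SW480 and higher in M5 too, and the log2 fold change between lines was 0.25 (SE 0.56, limma adjusted p = 0.900). PKM, pyruvate kinase, had 1527, 1571 and 1646 in M5 against 1724, 1209 and 1194 in SW480. The M5 arrays were close together and fell between SW480 replicate 1 and its other replicates, with a log2 fold change of 0.22 ± 0.17 (SE, adjusted p = 0.661 in limma).

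PFKM, a phosphofructokinase subunit, had 544, 467 and 485 in M5 against 664, 525 and 544 in SW480, with a log2 fold change of -0.21 ± 0.18 (SE, adjusted p = 0.704 in limma). It is the enzyme with the lowest log2 fold change, and M5 replicate 1 reached the level of the 2 lower SW480 arrays. HK2, the hexokinase that HIF targets in many tumours, had 267.5, 127 and 125 in M5 against 277, 189.7 and 121 in SW480, with a log2 fold change of -0.20 ± 0.36 (SE, adjusted p = 0.875 in limma). The signals of replicate 1 were nearly alike in the lines. PGK1, phosphoglycerate kinase, had 4644, 4181 and 4139 in M5 against 4644, 3394 and 3553 in SW480, with a log2 fold change of 0.17 ± 0.14 (SE, adjusted p = 0.692 in limma). Replicate 1 had the same signal in the lines after quantile normalisation, which gives equal ranks equal values. M5 replicates 2 and 3 lay above SW480 replicates 2 and 3. All 6 kept probe sets of PGK1 were higher in M5 in their fitted means, by 0.17 to 0.65 on the log2 scale, without passing.

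LDHA, which makes lactate from pyruvate, had 7566, 6925 and 7120.35 in M5 against 7013, 6495 and 6187 in SW480. The groups overlapped only through M5 replicate 2, which lay below SW480 replicate 1. The log2 fold change was 0.13 with a 95% interval of -0.11 to 0.38 (limma adjusted p = 0.687). GAPDH, a glycolytic dehydrogenase often used as a loading control, had 8476, 8326 and 8043 in M5 against 8976, 7781 and 7670.2 in SW480. Its log2 fold change was 0.03 with a 95% interval of -0.22 to 0.27 (limma adjusted p = 0.949), so a difference between lines of more than 0.27 lies outside that interval. With no scaling between arrays, its log2 fold change was 0.24.

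The other enzymes had smaller differences than GPI by their brightest probe sets and passed no threshold. The 4 kept probe sets of ENO1 ranged from 0.10 to 1.02, and the 3 of ALDOA from 0.16 to 0.57. On the log2 scale they were 0.17 for the aldolase gene ALDOA, 0.17 for its relative ALDOC, 0.17 for the phosphofructokinase subunit PFKL and 0.14 for the subunit PFKP. PGAM1, phosphoglycerate mutase, had 0.13, ENO1, the common enolase, 0.10, and HK1, the widely expressed hexokinase, 0.05. TPI1, triosephosphate isomerase, had -0.10 and LDHB, the lactate dehydrogenase subunit that favours pyruvate, -0.10. Both signs depend on the scaling, since without it TPI1 and LDHB were at 0.24 and 0.22, and with arrays centred on the median at 0.12 and 0.11. Probe sets of GAPDH, ALDOA, LDHB and PFKL carry the array maker's mark for probes shared by similar sequences, so related transcripts may add to their signals.

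Transporters and regulators decide how much glucose enters the pathway and where pyruvate goes. PDK1, the kinase that keeps pyruvate out of mitochondria, had signals of 167, 214 and 215 in M5 against 169, 119 and 118 in SW480. The replicate 1 arrays were alike and the others differed by line, with a log2 fold change of 0.56 ± 0.24 (SE, 95% interval 0.03 to 1.09, adjusted p = 0.412 in limma). The 3 kept probe sets of PDK1 ranged from -0.35 to 0.79. SLC2A1, the glucose transporter GLUT1, had 726, 384 and 472 in M5 against 1079.9, 349 and 747 in SW480. Signals varied widely in both lines, and the log2 fold change was -0.36 ± 0.37 (SE, adjusted p = 0.748 in limma). PFKFB3 and PFKFB4, which set the level of the activator of phosphofructokinase, had log2 fold changes of 0.29 and -0.06, and SLC2A3, the glucose transporter GLUT3, had -0.07 with a 95% interval of -2.27 to 2.14. Of the 3 kept probe sets of SLC2A3, 2 were positive, up to 0.64. SLC2A3 and PFKFB4 changed sign in 9 and 8 of the 21 alternative settings.

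**Figure D2:**
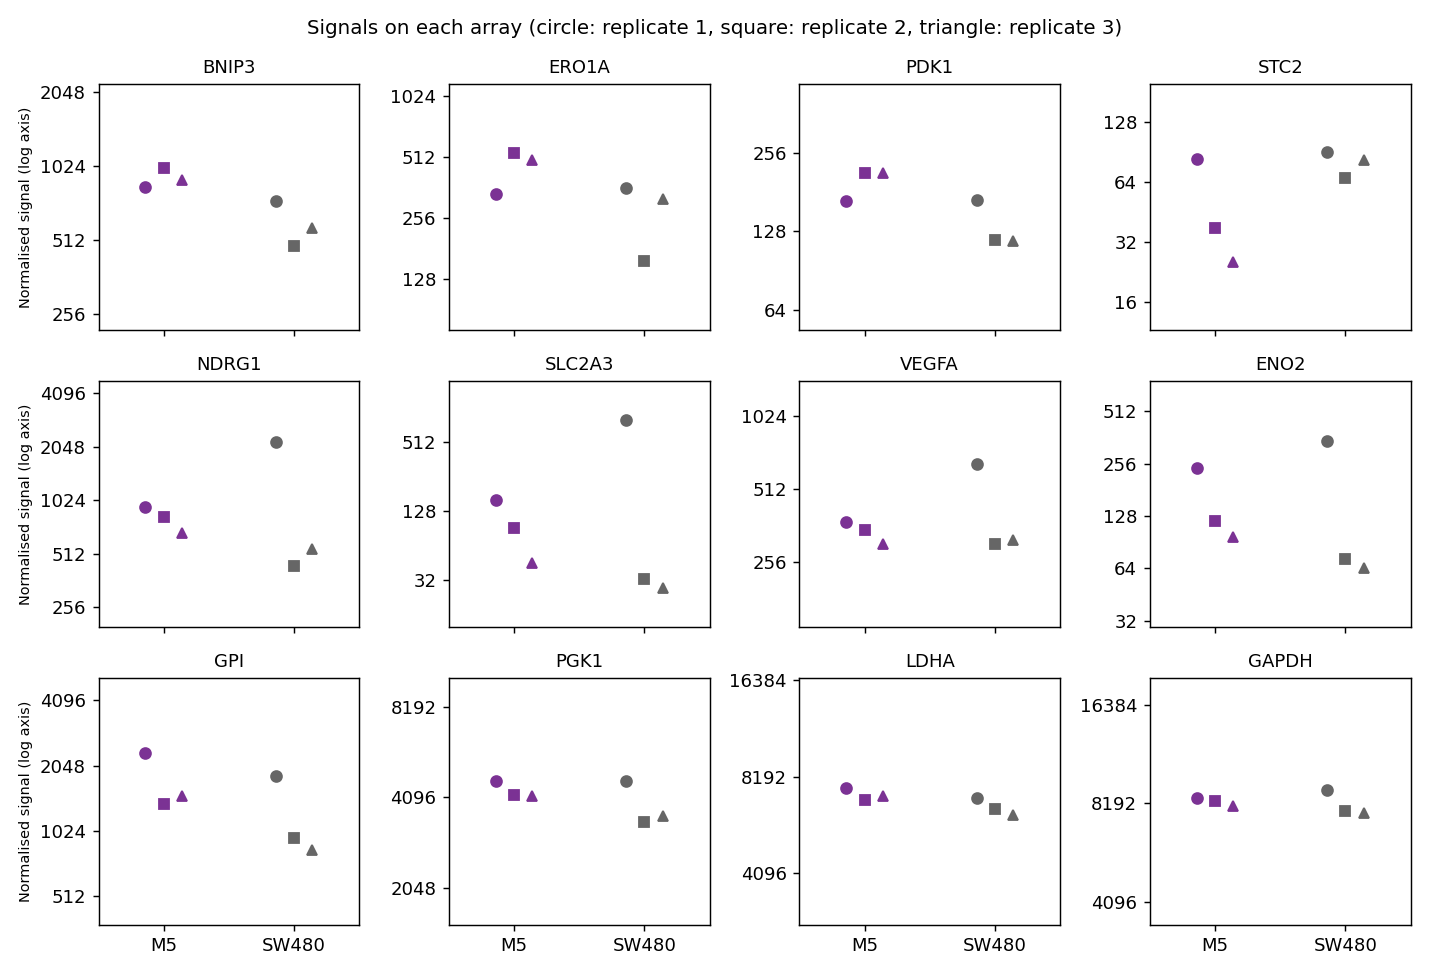
Normalised signal (log axis) of 12 members on each array, M5 left of SW480, with a circle for replicate 1, a square for replicate 2 and a triangle for replicate 3. BNIP3 is the panel without overlap between lines, and SLC2A3, NDRG1 and ENO2 stand far above the other SW480 arrays on SW480 replicate 1.

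HIF targets outside glycolysis had log2 fold changes of both signs, and none passed the threshold. BNIP3, a receptor that brings mitochondria to autophagy, had signals of 842, 1007 and 902 in M5 against 737, 485 and 572 in SW480. All M5 arrays lay above all SW480 arrays. The mean was 898 ± 79.9 (SD, n = 2) in M5 and 598 ± 128 (SD, n = 3) in SW480. The log2 fold change was 0.63 ± 0.19 (SE, 95% interval 0.21 to 1.05, adjusted p = 0.279 in limma), and its other probe set had 0.67 with overlapping lines. Its promoter has the most matches to the core among the 4 printed above, with 6. A window of HK2 and a window of LDHA, not printed, also held 6, with log2 fold changes of -0.20 and 0.13. ERO1A, an oxidase of protein folding in the endoplasmic reticulum, had 338, 537 and 499 in M5 against 361, 158 and 318 in SW480. M5 replicate 1 lay below SW480 replicate 1, while M5 replicates 2 and 3 were above every SW480 array. Its log2 fold change was 0.77 ± 0.31 (SE, 95% interval 0.09 to 1.45, adjusted p = 0.391 in limma), and its 3 kept probe sets ranged from 0.11 to 0.77.

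STC2, a secreted glycoprotein gene, had the lowest log2 fold change of the group. Its signal was 84.2, 37.7 and 25.6 in M5 against 91.1, 67.7 and 82.5 in SW480. Only M5 replicate 1 reached the SW480 arrays. The log2 fold change was -0.85 ± 0.40 (SE, 95% interval -1.73 to 0.03, adjusted p = 0.452 in limma), and the other probe set had -0.53. P4HA1, a prolyl hydroxylase subunit for collagen, had 823, 489.95 and 477 in M5 against 670, 335 and 284 in SW480, with a log2 fold change of 0.53 ± 0.32 (SE, adjusted p = 0.564 in limma). Replicate 1 was the highest array in both lines. DDIT4, an inhibitor of mTOR signalling, had 1215, 643 and 548 in M5 against 1568, 730.2 and 1050.05 in SW480, with a log2 fold change of -0.50 ± 0.32 (SE, adjusted p = 0.588 in limma). ANKRD37, a gene of an ankyrin repeat protein, had 629.9, 349 and 312 in M5 against 696, 137 and 259.8 in SW480, with a log2 fold change of 0.49 ± 0.48 (SE, adjusted p = 0.744 in limma). In both genes replicate 1 was again the highest array of its line.

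VEGFA, the main growth factor for blood vessels, had 374, 345 and 303 in M5 against 646, 303 and 316 in SW480. SW480 replicate 1 stood above the other 5 arrays, which lay between 303 and 374. The log2 fold change was -0.22 with a 95% interval of -0.83 to 0.39 (limma adjusted p = 0.810), and its 4 kept probe sets were split, with 2 positive and 2 negative. NDRG1, a stress-induced gene, is given with its arrays because of its spread, after its values were seen. It had 933, 824 and 674 in M5 against 2176, 435 and 541 in SW480, so the M5 arrays lay between SW480 replicate 1 and the other SW480 arrays, and the log2 fold change was 0.00 (SE 0.47). The remaining targets were ADM, a vasodilator peptide gene (-0.37), INSIG2, a regulator of sterol synthesis (-0.35), P4HA2, the relative of P4HA1 (-0.27), and CA12, a carbonic anhydrase (-0.06). EGLN3 and EGLN1, the oxygen-sensing hydroxylases of HIF, had 0.16 and -0.09. The 3 kept probe sets of P4HA2 were split, with 2 positive, up to 0.93, and the 3 of EGLN1 too, with 1 positive at 0.42. KDM3A, a histone demethylase, had 0.14, and BNIP3L, the relative of BNIP3, also had 0.14. EGLN3 was dim, with signals of 14.6 to 23.6 over all arrays, and CA12 had 20.3 to 48.0 in M5 and 19.6 to 52.3 in SW480.

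The difference between lines was set beside the spread of replicates within a line. A difference of means lies below a full range for most genes, so this does not show that replicates differed more than lines. The absolute difference between lines was below the wider of the 2 within-line ranges for 36 of 38 members (94.7%), against 91.5% of all genes. BNIP3 and PDK1 were the exceptions. The SW480 range was wider than the M5 range for 32 of 38 members (84.2%), against 55.1% of all genes. The median range was 0.42 in M5 and 0.76 in SW480 over the members on the log2 scale, and 0.65 in M5 and 0.71 in SW480 over all genes. M5 replicates 2 and 3 are the arrays counted as 1 sample, and their part in the narrower M5 range was not tested.

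Replicate 1 stood above the other replicates for most members when its log2 signal was set against the mean of replicates 2 and 3 of the same line. This comparison of arrays within a line has 1 array on one side and gives no test, and the array was singled out after its values were seen. Under quantile scaling, M5 replicate 1 was higher for 29 of 38 members with a median log2 difference of 0.23, and SW480 replicate 1 was higher for 34 of 38 with a median of 0.56. Over all genes these shares were 49.3% in M5 and 50.02% in SW480, and over the brightest 25% of genes, which hold 28 of the 38 members, 49.4% in M5 and 44.4% in SW480. These counts depend on the scaling. With the same probe sets and arrays centred on the median, replicate 1 was higher for 13 members in M5 and 10 in SW480. Over all genes the shares were then 29.2% in M5 and 22.6% in SW480. With no scaling it was higher for 2 members in M5 and 4 in SW480, against 8.67% and 8.24% of all genes. Those scalings put the median of all genes in this contrast at -0.41 and -1.16 in M5 and at -0.70 and -1.52 in SW480. Without scaling, 31 of 38 members in M5 (81.6%) and 34 of 38 in SW480 (89.5%) lay above the median of the brightest 25% of genes, as did 64.1% of all genes in M5 and 67.0% in SW480. Centring whole arrays cannot change that count.

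Over 2-fold higher signals on replicate 1 were found for 5 members in M5 and 10 in SW480 under quantile scaling. Over all genes the shares were 8.78% in M5 and 10.5% in SW480. Over 2-fold lower signals were found for 0 members in M5 and 1 in SW480, CA12, against 10.9% and 9.79% of all genes. With arrays centred on the median, 1 member in M5 and 3 in SW480 were over 2-fold higher, against 5.73% and 6.16% of all genes. With no scaling these were 0 in M5 and 1 in SW480, against 1.54% and 1.56% of all genes. SW480 replicate 1 was the array with the larger differences. SLC2A3 led with signals of 159, 90.6 and 44.9 in M5 against 785, 32.9 and 27.4 in SW480, a 24.8-fold difference between SW480 replicate 1 and the mean of its other replicates. Its other 2 kept probe sets had 590.5 and 134 on SW480 replicate 1, against 34.8 and 21.1 in one and 10.9 and 2.42 in the other on SW480 replicates 2 and 3. Further probe sets that list SLC2A14 beside SLC2A3 were not used. ENO2 was 4.98-fold higher on SW480 replicate 1, NDRG1 4.47-fold and ANKRD37 3.66-fold.

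The other members over 2-fold higher on SW480 replicate 1 were ALDOC, P4HA1, SLC2A1, VEGFA, GPI and P4HA2, at 2.05-fold to 2.28-fold. They come from all 3 roles, with 3 enzymes, 5 HIF targets outside glycolysis and 2 transporters. Some enzymes differed less, with 1.34-fold for PGK1, 1.16-fold for GAPDH and 1.11-fold for LDHA. LDHB went the other way, with log2 differences of -0.34 on M5 replicate 1 and -0.47 on SW480 replicate 1. In M5 the members over 2-fold higher on replicate 1 were STC2, SLC2A3, ENO2, HK2 and DDIT4, at 2.04-fold to 2.62-fold, so SLC2A3 and ENO2 were over 2-fold higher in both lines. ERO1A, ALDOC, PDK1, BNIP3, PKM, INSIG2 and EGLN3 were lower on M5 replicate 1 and higher on SW480 replicate 1. All these folds hold for quantile scaling.

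**Figure D3:**
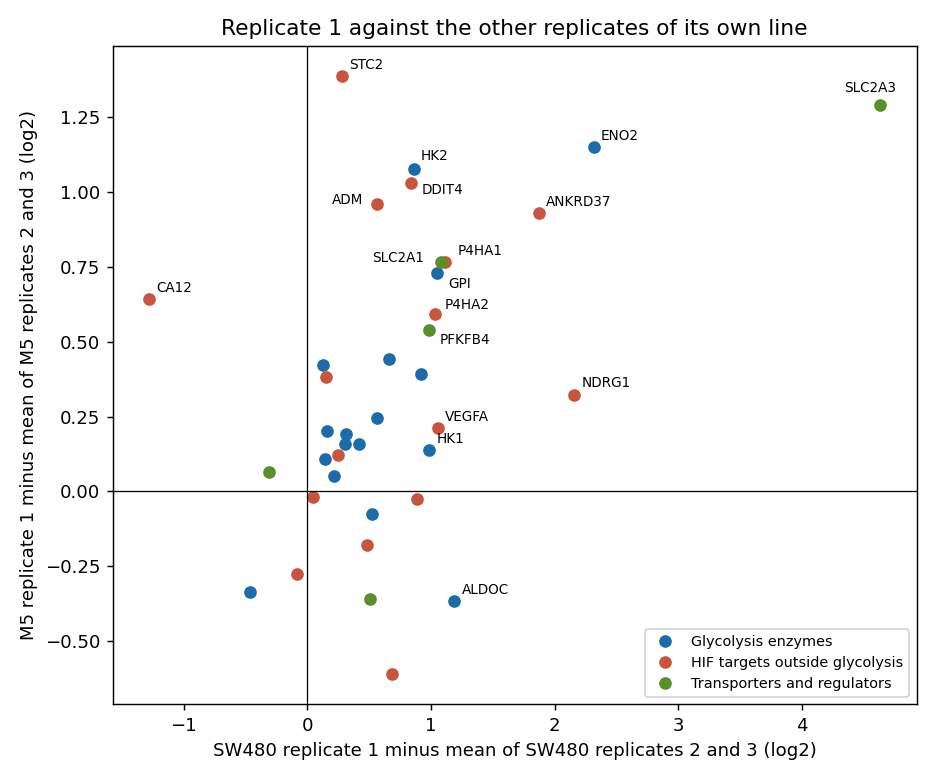
Log2 difference between replicate 1 and the mean of replicates 2 and 3 within SW480 (horizontal) and within M5 (vertical), 1 point per member, coloured by role, after quantile scaling. Of 38 members, 29 lie above 0 in M5 and 34 in SW480, against 49.3% and 50.02% of all genes. Without scaling between arrays 2 were above 0 in M5 and 4 in SW480, against 8.67% and 8.24% of all genes.

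Over all members, the median log2 difference of replicate 2 minus replicate 3 was 0.04 in M5 and 0.01 in SW480. The roles differed. For HIF targets the median was 0.16 in M5 and -0.19 in SW480, with 15 of 16 and 5 of 16 higher on replicate 2. For enzymes it was -0.02 and 0.07, with 8 of 17 and 12 of 17 higher. Over all genes, 50.9% in M5 and 46.3% in SW480 were higher on replicate 2. By role, the median log2 signal relative to each gene's mean over 6 arrays was 0.19 on M5 replicate 1 and 0.31 on SW480 replicate 1 for the enzymes, and at most -0.02 on the other 4 arrays. For the HIF targets it was 0.22, 0.02 and -0.19 on M5 replicates 1 to 3 and 0.52, -0.22 and -0.16 on those of SW480. For transporters and regulators it was 0.33, 0.03 and -0.27 on M5 replicates 1 to 3 and 0.69, -0.44 and -0.45 on those of SW480.

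**Figure D4:**
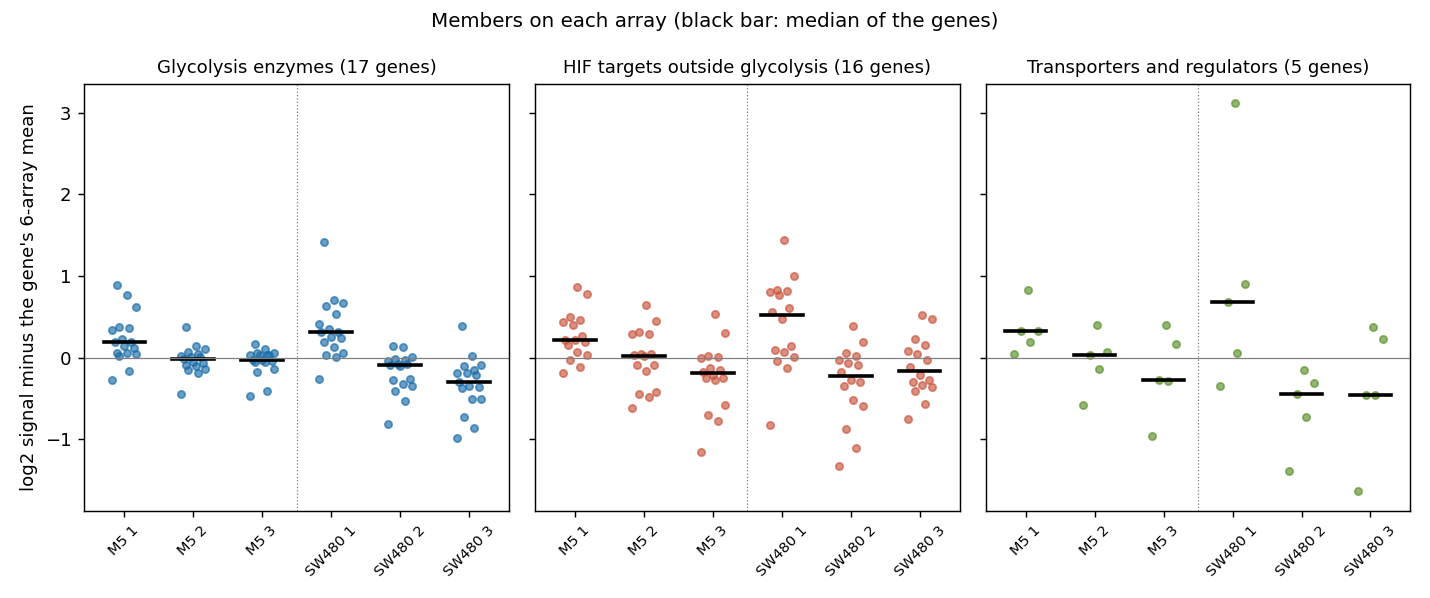
Log2 signal of each member relative to its own mean over 6 arrays, after quantile scaling, by array and role, with M5 arrays left of SW480 arrays and a black bar for the median. The medians on replicate 1 are the highest of each line in all 3 roles, at 0.19 to 0.33 in M5 and 0.31 to 0.69 in SW480.

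Other measures were read on the same arrays, and not all of them set replicate 1 apart. It was the dimmest array of each line before scaling. An 18S ribosomal RNA control was 3582, 209 and 234 on M5 replicates 1, 2 and 3 and 2824, 4163 and 96.3 on SW480 replicates 1, 2 and 3, so it was high on both replicate 1 arrays and on SW480 replicate 2. The ratio of the GAPDH control probe sets for the 3′ end over the 5′ end, a measure of RNA quality, was 1.08, 1.03 and 1.04 in M5 and 1.15, 1.04 and 1.12 in SW480. That ratio for actin was 1.99, 2.19 and 1.92 in M5 and 1.64, 1.92 and 2.11 in SW480, so replicate 1 was highest in both lines for GAPDH, and for actin lowest in SW480 and intermediate in M5. The keratin marker KRT19 had 2660, 2647 and 2751 in M5 and 2956, 1433 and 955 in SW480, so it stood high on SW480 replicate 1 and was even over the M5 arrays. The part of these measures in the members' signals was not tested.

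The members' difference between lines changed with the arrays used. M5 replicate 1 was higher than SW480 replicate 1 for 13 of 38 members, and the mean of M5 replicates 2 and 3 was higher than the mean of SW480 replicates 2 and 3 for 26 of 38. Over all genes these shares were 49.4% and 51.2%. The sign was the same in both for 21 of 38 members (55.3%), against 50.6% of all genes. BNIP3 was higher in M5 in both, by 0.19 and 0.85 on the log2 scale, as were GPI (0.35 and 0.67) and P4HA1 (0.30 and 0.65). STC2 was lower in M5 in both, at -0.11 and -1.22. ERO1A (-0.09 and 1.201), PDK1 (-0.02 and 0.85), NDRG1 (-1.22 and 0.62) and SLC2A3 (-2.29 and 1.05) had opposite signs.

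Without the dimmer pair, limma called 6 members higher in M5 and 1 lower, against 5.06% of all genes higher and 6.35% lower. The higher ones were BNIP3 (0.85), ERO1A (1.201), PDK1 (0.85), GPI (0.67), P4HA1 (0.65) and NDRG1 (0.62), and the lower one was STC2 (-1.22), with limma adjusted p of 0.00851 to 0.0471. Those arrays include M5 replicates 2 and 3, and with this pair averaged to 1 sample 0 members passed in either direction (lowest limma adjusted p = 0.131), the lone M5 sample being assumed to vary like SW480. With array weights, limma called 3 members higher, BNIP3, ERO1A and PDK1, and 1 lower, STC2, against 3.81% and 4.98% of all genes. That fit too counts M5 replicates 2 and 3 as separate arrays.

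The genes that control HIF were read in the same fit, from lists of pathway genes outside the group. Of 11 genes of the HIF system 9 were tested, and 0 passed in either direction (0.0702% of all genes higher, 0.0632% lower), with 1 higher and 3 lower at limma p under 0.05 before adjustment (5.43% of all genes higher, 6.12% lower). ARNT2, a partner of HIF, had signals of 3.45, 2.15 and 16.2 in M5 against 13.97, 19.9 and 19.4 in SW480, all low signals, with a log2 fold change of -1.44 (limma adjusted p = 0.421). HIF1AN, the asparagine hydroxylase that restrains HIF, had 56.2, 43.4 and 39.5 in M5 against 82.1, 106 and 109 in SW480, with a log2 fold change of -1.07 ± 0.28 (SE, adjusted p = 0.234 in limma). CITED2, which competes with HIF for a coactivator, had 166, 144 and 141 in M5 against 92.7, 71.3 and 112 in SW480, with a log2 fold change of 0.72 (limma adjusted p = 0.347). HIF1A, the alpha subunit itself, is added after its values were seen, and had 971, 887 and 932 in M5 against 1680.5, 1294 and 1357 in SW480, with a log2 fold change of -0.62 ± 0.16 (SE, adjusted p = 0.222 in limma). Every M5 array lay above every SW480 array for 1 of the 9 genes, CITED2 (7.74% of all genes), and below for 3, HIF1A, HIF1AN and EPAS1 (8.36% of all genes). EPAS1, another HIF alpha subunit named after its values were seen, had 124, 135 and 142 in M5 against 152, 146 and 217 in SW480, with a log2 fold change of -0.34 (limma adjusted p = 0.629). HIF1A was also highest on replicate 1 in both lines. HIF activity is set mainly by the stability of the protein, which these arrays do not measure.

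Among 30 other HIF targets 26 were tested, with a median log2 fold change of -0.07. Of these, 0 were called in either direction (0.0702% of all genes higher, 0.0632% lower). At limma p under 0.05 before adjustment, 1 was higher and 1 lower (5.43% of all genes higher, 6.12% lower). The largest log2 fold changes were 1.24 for IGFBP3, a binding protein of insulin-like growth factors, 0.996 for the lipoprotein receptor gene VLDLR and 0.85 for the nuclear receptor gene RORA. IGFBP3 had 111, 196 and 137 in M5 against 211, 25.1 and 39.4 in SW480, so here too SW480 replicate 1 stood far above its line. VLDLR and RORA were dim, with signals of at most 16.7 on every array. Among 27 other glycolysis and neighbouring genes 17 were tested, with 0 called and a median of 0.14. At limma p under 0.05 before adjustment, 0 were higher and 1 lower, beside the same shares of all genes (5.43% and 6.12%). PDK3, a relative of PDK1, had 69.8, 57.7 and 69.4 in M5 against 161, 107 and 119 in SW480, with a log2 fold change of -0.94 ± 0.26 (SE, adjusted p = 0.258 in limma). The M5 and SW480 arrays did not overlap for PDK3, whose sign was opposite to that of PDK1. Of these 17 genes, 2 lay wholly lower in M5, PDK3 and ENO3, and 1 wholly higher, TIGAR. Of the 26 HIF targets, 2 lay wholly lower and 2 wholly higher. Over all genes, 8.36% lay wholly lower and 7.74% wholly higher. LDHC, a lactate dehydrogenase of the testis, had 0.79 with signals of at most 18.95 in M5 and 17.6 in SW480, and PDK2, another relative of PDK1, had 0.75, both with overlapping lines.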

How the data were processed

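Total RNA of 3 M5 and 3 SW480 cultures was measured on Affymetrix U133 Plus 2.0 arrays. The deposited values are signal intensities per probe set on a linear scale, made by the authors with GCOS 1.4, per the submitters' processing notes. Which settings and genome build were used is not given in the sources used here, and the table holds no detection calls. All 6 columns of the table carry a sample, and 0 columns do not.

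Probe sets were named by the platform annotation of 2016, and only those with 1 symbol were used. Leaving out 62 control probe sets, signals were quantile normalised, as trimmed means differed by up to 4.12 times, and log2(signal + 1.7) was taken, where 1.7 is the 20th percentile of all deposited values. On this scale the fold change of a dim gene is understated. Probe sets among the lowest 40% by mean log2 signal were left out. The brightest remaining probe set stood for a gene. M5 was compared with SW480 in limma 3.58.1 under R 4.3.3 by lmFit and eBayes with an intensity trend, two-sided, on all 6 arrays, with Benjamini-Hochberg adjustment over the 14243 genes and a threshold of 0.05. The scripts were tested on simulated signals. Figures were drawn with matplotlib 3.10.9.

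All members are named with a log2 fold change. Signals on every array are given for the 6 enzymes, 6 HIF targets and 2 transporters or regulators with the largest absolute log2 fold change, and for VEGFA, SLC2A1, GAPDH, PGK1 and LDHA. Of each other list, the 3 genes with the largest absolute log2 fold change are named. The members and lists were chosen with earlier results of these data known. Whether replicate numbers pair the arrays is not settled. Deviations from the line means correlated at 0.11, 0.02 and 0.07 for equal numbers. Over bright probe sets, M5 replicate 1 correlated at r = 0.955 with SW480 replicate 1. Its r was 0.935 and 0.933 with M5 replicates 2 and 3. SW480 replicate 1 correlated at 0.911 with each of SW480 replicates 2 and 3. The main fit has no block. Median differences over roles are descriptions without a test. Alternatives changed the scaling, pseudocount, filter, variance model, probe set rule, blocks and arrays. The number of arrays limits the precision.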

Additional observations from a re-analysis of the deposited data

How the results depend on the processing

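Across 21 alternative settings, the count of members called stayed at 0 in each direction in 19. The exceptions were the fit without the dimmer pair, with 6 members higher and 1 lower, and that with array weights, with 3 higher and 1 lower. Averaging M5 replicates 2 and 3 after leaving out the dimmer pair, a fit chosen after the data were seen, 0 were called. NDRG1, called in the fit without the dimmer pair, changed sign in 4 settings, down to -0.43 without SW480 replicate 2, and the other 6 members called there changed sign in 0. Leaving out 1 array in turn called 0 members, with the lowest limma adjusted p between 0.0655 and 0.813, and median log2 fold changes of -0.01 to 0.31 for enzymes, -0.16 to 0.15 for HIF targets and -0.27 to 0.28 for transporters and regulators. With the replicate block, a pairing by number that is not settled, 0 members were higher and 0 lower (lowest limma adjusted p = 0.197). The counts within SW480 were chosen after the data were seen. Members higher on SW480 replicate 1, 34 with quantile scaling, were 4 with no scaling and 11 with arrays centred on the median (10 where the probe sets of the quantile scaling were kept), and those over 2-fold higher, 10 with quantile scaling, were 1 and 3. With arrays centred on the brightest 25% of genes they were 34 and 11, against 68.3% and 23.1% of all genes. Dim members such as EGLN3 and CA12 lie where the lack of detection calls limits what a fold can show.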
